A study of Mus musculus with 5 samples.

Results

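Imprinted genes are transcribed mainly from the copy inherited from a particular parent, and a list of 34 such genes of the mouse was examined in gliomas that carry mutant or wild-type IDH1. The members were found by gene symbol among the annotated probes of the array, and the brightest probe of each gene was read. Of the 34 genes, 30 had a probe under their own symbol. Sgce lay below the filter on dim probes, and H19, Snrpn, Mirg and Airn were not analysed here, so 29 of the 34 members entered a test over 16917 genes.

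The study measured RNA of whole tumour tissue from 5 mouse gliomas on Illumina BeadArrays, 3 mutIDH1 and 2 wtIDH1, the latter named as the control group. All tumours were raised in Ntva mice that lack Ink4a/Arf, a tumour suppressor locus, by injection of DF1 cells, a chicken fibroblast line that releases RCAS viruses. These viruses infect cells bearing the tva receptor, which Ntva mice make under the nestin promoter of neural progenitors. In both groups PDGFa virus was given together with a virus that carried shp53 (from its name, a hairpin RNA that lowers p53) and either mutant or wild-type IDH1. The tumours were not treated and were collected when the mice fell ill, and ages are not given in the sources used here. Every sample has the same 4 background strains listed (FVB/N, C57BL6, BALB/C and 129), so the strain makeup of a given tumour, and with it the parental alleles, is not known. Each sample has a tumour code of its own, so p-values measure the spread between these tumours.

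Imprints are DNA methylation marks laid down in the germ line at imprinting control regions, and they are kept through cell division by maintenance methylation and by zinc finger proteins bound to the marked copy. Mutant IDH1 makes 2-hydroxyglutarate, which inhibits oxygenases that use 2-oxoglutarate, among them the TET enzymes that oxidise methylated cytosine. Several imprinted genes act on growth, with paternally expressed ones often promoting it and maternally expressed ones often restraining it. Others, such as Ndn and Ube3a, are known from neurons. An expression array reads the sum of both parental copies, so the values below do not show which allele was transcribed, and methylation was not measured.

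Across all genes 152 fell and 76 rose in mutIDH1 gliomas (limma, Benjamini-Hochberg adjusted p under 0.05). Over all tested genes, which are not independent replicates, wtIDH1 sample 1 and sample 2 were less alike (Pearson r = 0.971) than any pair of mutIDH1 samples (at least 0.988). Pairs across the groups ran from 0.969 to 0.98. The 2 wtIDH1 samples were thus also less alike than most pairs across the groups. Idh1 itself stood at 0.17 ± 0.19 (log2, SE, mutIDH1 minus wtIDH1, adjusted p = 0.783), and whether its probe reads the delivered IDH1 is not known here. Precision is limited by the number of arrays. In whole tumour RNA, fewer cells of a type and less RNA per cell cannot be told apart.

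Of the 29 tested imprinted genes, 2 fell in mutIDH1 gliomas and 0 rose. These were Cdkn1c, the cyclin-dependent kinase inhibitor p57, and Dlk1, a membrane protein related to Notch ligands that is found on progenitor cells. That is 6.9% of the members, where 1.35% of all genes were called, 0.899% lower and 0.449% higher. At an unadjusted p under 0.05 the count was 4 of 29 (13.8%), against 14.4% of all genes. The groups did not overlap for 7 members (24.1%), against 30.6% of all genes. Of these, 2 were lower in mutIDH1 (14% of all genes were) and 5 were higher (16.7% of all genes), namely Gnas, Inpp5f, Zim1, Magel2 and Kcnk9, the last 3 under background. The members' median change was 0.04, against 0.01 over all genes, and their median size of change irrespective of direction was 0.17, against 0.10. Of the tested members, 19 (65.5%) had a change above 0, where 54.4% of all genes did, and of the 20 members above background on some array 12 (60%) did, against 54.6% of all such genes.

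**Figure D1:**
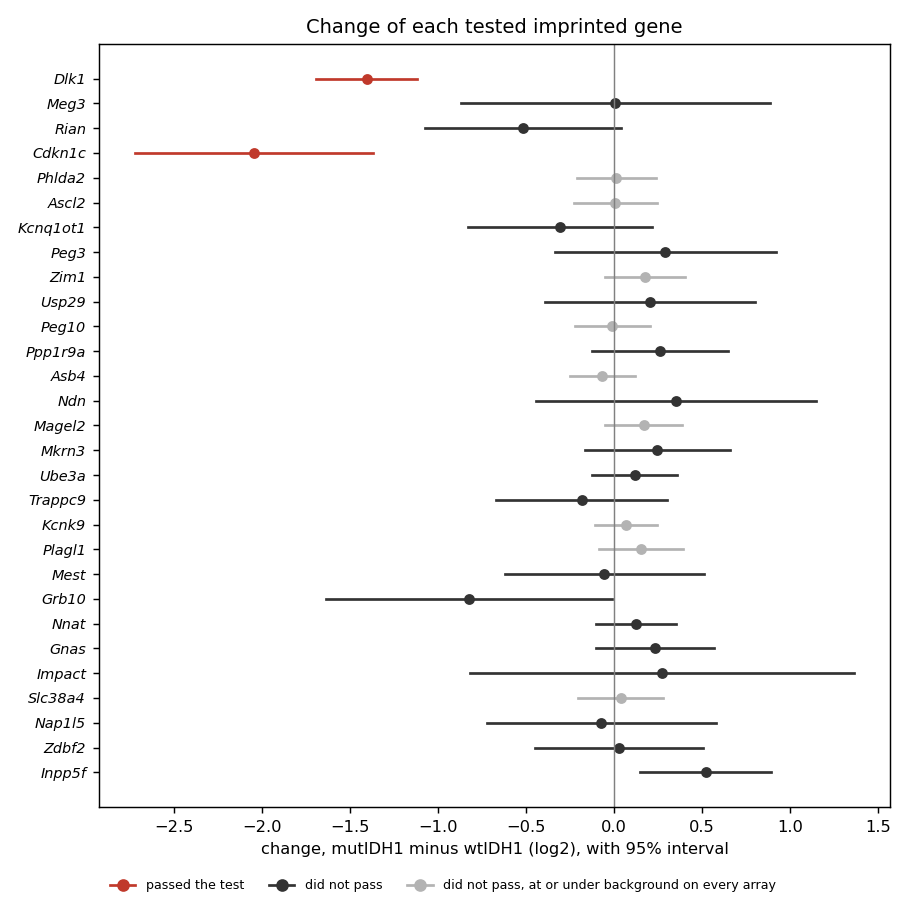
Change of the 29 tested imprinted genes on the log2 scale (horizontal axis, mutIDH1 minus wtIDH1, points) with the 95% interval of the moderated test (bars, 3 and 2 samples), ordered by cluster. The intervals of Dlk1 and Cdkn1c, which passed the test, lie below -1, those of Inpp5f and Grb10 exclude 0 without passing after adjustment, and grey marks the 9 genes at or under background on every array.

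Cdkn1c lies in the Kcnq1 cluster on chromosome 7 and is expressed from the maternal copy. Its log2 signal was 8.79, 9.06 and 8.48 in mutIDH1 samples 1, 2 and 3 and 10.45 and 11.20 in wtIDH1 samples 1 and 2. All mutIDH1 samples lay below both wtIDH1 samples, and the gap between the groups was wider than the spread within either. The mean was 8.78 ± 0.29 (SD, n = 3) in mutIDH1 and 10.82 ± 0.53 (SD, n = 2) in wtIDH1. Cdkn1c thus fell by 2.05 ± 0.27 on the log2 scale (SE, 95% interval -2.73 to -1.37), or 4.14-fold, with a limma adjusted p of 0.0432. By size of change Cdkn1c ranked 21 of all 16917 genes. It was read by a single probe.

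The call on Cdkn1c did not hold under every setting. The adjusted p was 0.0509 with cyclic loess, 0.0764 with sex as a covariate, and 0.13, 0.181 and 0.184 without mutIDH1 sample 1, 2 and 3, while the change stayed between -2.42 (without wtIDH1 sample 1) and -1.67 (without wtIDH1 sample 2).

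The other members of the Kcnq1 cluster did not pass. Kcnq1ot1, the paternally expressed long noncoding RNA whose transcription silences the cluster on its own copy, was at 7.47, 7.58 and 7.23 in mutIDH1 and at 7.42 and 8.05 in wtIDH1. An array background level was estimated at 7.51, so Kcnq1ot1 was above it in 1 sample of each group, and its change of -0.31 ± 0.21 (adjusted p = 0.614) was within the spread between samples. Phlda2, a pleckstrin homology protein that restrains placental growth, and Ascl2, a bHLH transcription factor of trophoblast and intestinal stem cells, were at or under background on all arrays (changes of 0.01 ± 0.09 and 0.01 ± 0.09). The tested genes next to Cdkn1c in the RefSeq gene order were Kcnq1ot1 on one side and Slc22a18, an organic cation transporter, on the other. Slc22a18 was also at or under background throughout (0.22 ± 0.07, adjusted p = 0.261), and Nap1l4, a histone chaperone a few genes away and well above background, stood at 0.08 ± 0.07 (adjusted p = 0.692).

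Dlk1 lies in the Dlk1-Dio3 cluster on chromosome 12 and is expressed from the paternal copy. Its log2 signal was 10.71, 10.58 and 10.37 in mutIDH1 samples 1, 2 and 3 and 11.97 and 11.95 in wtIDH1 samples 1 and 2. The groups did not overlap, and the wtIDH1 samples were nearly equal. The mean was 10.55 ± 0.17 (SD, n = 3) in mutIDH1 and 11.96 ± 0.02 (SD, n = 2) in wtIDH1. Dlk1 thus fell by 1.41 ± 0.11 on the log2 scale (SE, 95% interval -1.70 to -1.12), or 2.65-fold, with a limma adjusted p of 0.0186. A second Dlk1 probe, which was not used for the call, read 8.68, 8.86 and 8.74 in mutIDH1 and 10.23 and 9.81 in wtIDH1. That probe too had no overlap, and it gave -1.26 ± 0.14 (adjusted p = 0.032 in a limma fit of all probes past the filter).

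The adjusted p of Dlk1 was 0.0502, 0.144 and 0.096 without mutIDH1 sample 1, 2 and 3, with changes between -1.49 and -1.32, and it stayed under the threshold with sex as a covariate (0.0378) and with cyclic loess (0.0182).

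The maternally expressed noncoding RNAs of the same cluster did not pass. Meg3, a long noncoding RNA, was at 8.27, 7.90 and 7.73 in mutIDH1 and at 7.40 and 8.52 in wtIDH1. The wtIDH1 samples were thus the lowest and the highest of all 5, and the change of 0.01 ± 0.35 had a 95% interval from -0.87 to 0.89 (adjusted p = 0.998). Rian, which hosts small nucleolar RNAs and microRNAs, was at 7.99, 7.80 and 7.66 in mutIDH1 and at 7.98 and 8.68 in wtIDH1, where only sample 2 stood clear of the mutIDH1 samples. Its change was -0.52 ± 0.22 (95% interval -1.07 to 0.04, adjusted p = 0.389). Of further genes of the cluster, Rtl1, a retrotransposon-derived gene of placenta and muscle, gave 0.06 ± 0.12 (adjusted p = 0.885). It was above background in only 2 mutIDH1 samples and 1 wtIDH1 sample. Dio3, a deiodinase that inactivates thyroid hormone, gave -0.07 ± 0.08 and was at or under background throughout. Begain, next to Dlk1 on the other side, gave 0.01 ± 0.08, also under background. Wars, a few genes away on that side and above background, was higher in mutIDH1 without overlap but did not pass. It stood at 0.43 ± 0.07 (limma adjusted p = 0.0746; chosen after its values were seen).

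**Figure D2:**
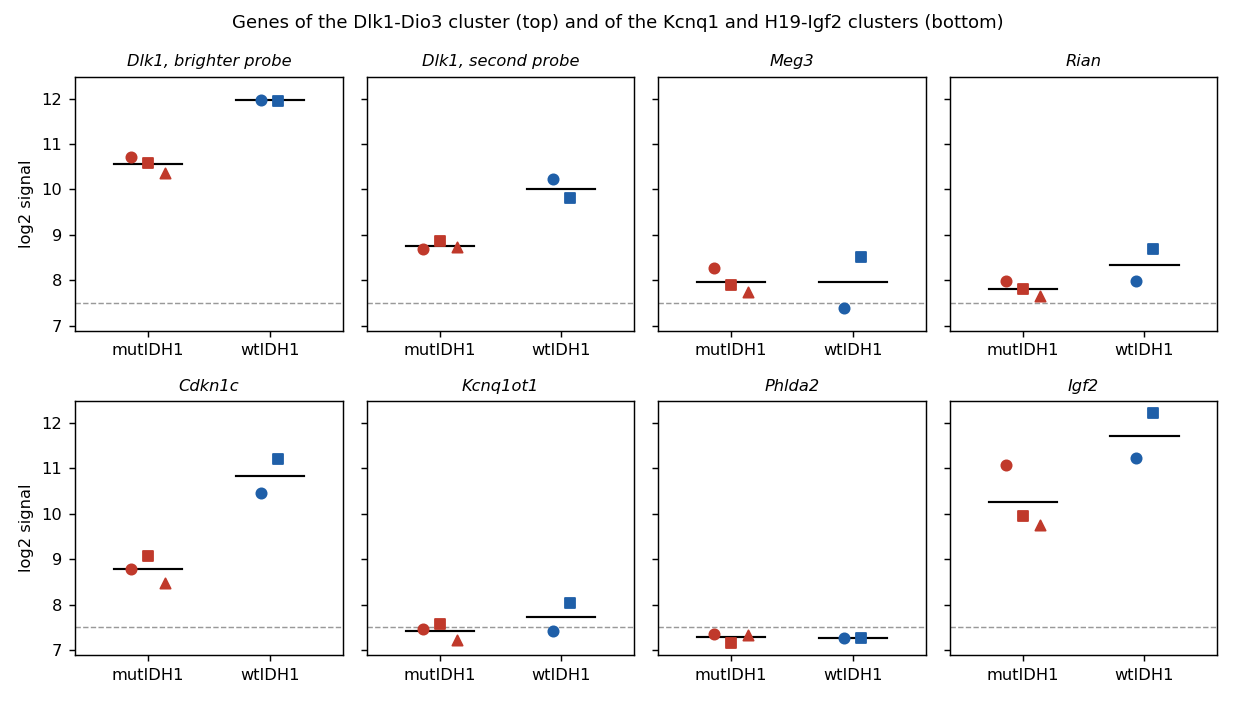
Log2 signal (vertical axis) of genes of the Dlk1-Dio3 cluster (top) and of the Kcnq1 and H19-Igf2 clusters (bottom) in each mutIDH1 (red) and wtIDH1 (blue) sample, where circles, squares and triangles are samples 1, 2 and 3, black lines are group means and the dashed line is the estimated background of 7.51. Both Dlk1 probes and Cdkn1c separate the groups, Igf2 does so narrowly without passing the test, Meg3 and Kcnq1ot1 overlap, and Phlda2 stays under background.

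Promoter windows of the RefSeq table (build GRCm38.p6, 250 bases before to 50 after a start site) are shown for Dlk1, for its neighbour Meg3, whose level did not separate the groups, and for Kcnq1ot1, next to Cdkn1c. The window of Usp29 is added because its start lies back to back with that of Peg3, a pair taken up below. Capitals mark CG dinucleotides, the sites of CpG methylation, and these windows were chosen after the values were seen.
Dlk1, chr12:109452573-109452872, plus strand: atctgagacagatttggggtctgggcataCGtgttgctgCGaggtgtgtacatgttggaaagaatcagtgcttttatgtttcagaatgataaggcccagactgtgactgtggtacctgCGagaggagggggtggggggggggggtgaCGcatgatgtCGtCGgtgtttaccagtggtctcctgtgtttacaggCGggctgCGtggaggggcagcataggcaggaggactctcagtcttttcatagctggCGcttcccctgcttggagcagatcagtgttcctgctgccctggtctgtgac
Meg3, chr12:109540746-109541045, plus strand: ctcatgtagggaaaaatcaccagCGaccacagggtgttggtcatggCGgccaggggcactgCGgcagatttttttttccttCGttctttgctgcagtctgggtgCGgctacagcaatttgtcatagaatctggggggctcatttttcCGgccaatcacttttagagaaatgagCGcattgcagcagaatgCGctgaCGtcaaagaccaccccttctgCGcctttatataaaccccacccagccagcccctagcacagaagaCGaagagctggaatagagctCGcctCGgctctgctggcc
Kcnq1ot1, chr7:143296498-143296797, minus strand: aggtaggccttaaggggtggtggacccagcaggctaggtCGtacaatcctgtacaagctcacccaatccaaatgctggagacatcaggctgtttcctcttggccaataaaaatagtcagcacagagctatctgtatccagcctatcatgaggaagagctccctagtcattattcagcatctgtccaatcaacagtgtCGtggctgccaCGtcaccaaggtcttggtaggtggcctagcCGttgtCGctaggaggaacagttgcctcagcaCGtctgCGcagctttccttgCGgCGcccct
Usp29, chr7:6730333-6730632, plus strand: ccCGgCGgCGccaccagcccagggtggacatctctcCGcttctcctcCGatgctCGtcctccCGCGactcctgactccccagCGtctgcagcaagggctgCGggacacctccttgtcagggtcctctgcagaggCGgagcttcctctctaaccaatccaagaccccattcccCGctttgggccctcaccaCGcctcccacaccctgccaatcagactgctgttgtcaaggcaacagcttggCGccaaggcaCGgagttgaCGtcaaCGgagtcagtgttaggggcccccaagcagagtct

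The Dlk1 window holds 9 CG dinucleotides, the Meg3 window shown 13, that of Kcnq1ot1 9 and that of Usp29 17. A second Meg3 window (chr12:109545148-109545447, plus strand), not shown, holds 1. Over all 32851 windows of the table the median was 7, with quartiles of 3 and 20, so the 4 windows shown lie between the quartiles and the second Meg3 window lies under the lower one. Of the members, 27 had at least 1 window, 42 windows in all, with 0 (Rian) to 48 (Ppp1r9a) CG dinucleotides and a median of 13. The letters TGCCGC, the core recognised by the imprint-keeping factor Zfp57, or their complement GCGGCA were found in 10 of the 42 member windows (23.8%), which belong to 9 genes, and in 11.6% of all windows. Windows of a gene can overlap, as for Mest, and each is counted. The Meg3 window shown holds 1 such match, its second window 0, and the windows of Dlk1, Kcnq1ot1 and Usp29 hold 0. Imprinting control regions often lie outside these windows, and a match is a run of letters, not a bound site.

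Growth regulators outside these clusters did not pass. Grb10, an adaptor that restrains insulin receptor signalling, expressed from the maternal copy in most tissues and from the paternal copy in neurons, was at 9.46, 9.001 and 8.69 in mutIDH1 and at 9.44 and 10.31 in wtIDH1. Here wtIDH1 sample 1 lay at the level of mutIDH1 sample 1, and wtIDH1 sample 2 stood above all others. The change of -0.82 ± 0.33 (95% interval -1.64 to -0.01, adjusted p = 0.343) was -1.26 without wtIDH1 sample 1 and -0.39 without wtIDH1 sample 2. Mest, a paternally expressed hydrolase of mesoderm, was at 10.31, 9.61 and 10.27 in mutIDH1 and at 10.11 and 10.13 in wtIDH1 (-0.06 ± 0.23, adjusted p = 0.953), and its 2 other probes gave 0.19 each. Plagl1, a paternally expressed zinc finger factor that restrains proliferation and acts on other imprinted genes, was at or under background on every array with all 3 probes. The same held for Slc38a4, a placental amino acid transporter.

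Inpp5f, an inositol phosphatase gene with a paternally expressed brain transcript, had the largest positive change of the list. Its signal was 12.50, 12.76 and 12.61 in mutIDH1 and 12.31 and 11.90 in wtIDH1. All mutIDH1 samples lay above both wtIDH1 samples, but the change of 0.52 ± 0.15 (95% interval 0.15 to 0.89) did not pass (adjusted p = 0.195). Its 3 dimmer probes had changes between 0.00 and 0.21, and whether any of the probes reads the imprinted transcript is not known here.

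The paternally expressed genes of the Peg3 cluster did not pass. Peg3, a zinc finger factor linked to growth and maternal behaviour, was at 10.09, 9.88 and 9.40 in mutIDH1 and at 9.24 and 9.76 in wtIDH1. Usp29, a ubiquitin-specific protease gene, was at 8.37, 8.06 and 7.76 in mutIDH1 and at 7.57 and 8.14 in wtIDH1. By these probes both were highest in mutIDH1 sample 1 and lowest in wtIDH1 sample 1, and the groups overlapped. The changes were 0.29 ± 0.25 and 0.20 ± 0.24 (adjusted p = 0.705 and 0.799). A dimmer Peg3 probe, above background on all arrays, differed from this: it read 8.05, 8.07 and 8.11 in mutIDH1 and 7.74 and 7.86 in wtIDH1. Its groups did not overlap, and its change was 0.28 ± 0.07 (adjusted p = 0.173 in the fit of all probes). The promoter windows of the 2 genes lie on opposite strands and share 263 bases, so the Usp29 sequence above also covers most of that of Peg3. Zim1, the maternally expressed zinc finger gene of this cluster, was at or under background.

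In the cluster of Snrpn and Ube3a, whose human counterpart is deleted in Prader-Willi and Angelman syndromes, none of the 4 tested members passed. Ndn, necdin of postmitotic neurons, was at 13.61, 13.28 and 12.68 in mutIDH1 and at 12.52 and 13.15 in wtIDH1 (0.35 ± 0.32, adjusted p = 0.72). Mkrn3, a ring finger protein that restrains the onset of puberty, was at 9.59, 9.65 and 9.69 in mutIDH1 and at 9.67 and 9.13 in wtIDH1 (0.24 ± 0.17, adjusted p = 0.613), so that only wtIDH1 sample 2 stood apart. Ube3a, a ubiquitin ligase expressed from the maternal copy in neurons, was at 9.06, 9.05 and 8.88 in mutIDH1 and at 8.80 and 8.96 in wtIDH1 (0.12 ± 0.10, adjusted p = 0.697). Magel2, a partner of ubiquitin ligases, was at or under background. Snurf, which is encoded on the same transcript as Snrpn and has probes of its own, was at 13.91, 13.54 and 13.30 in mutIDH1 and at 12.73 and 13.86 in wtIDH1 (0.29 ± 0.36, adjusted p = 0.812).

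The remaining members above background had changes of under 0.3 in size on the log2 scale, and their groups overlapped except for Gnas. Gnas, which encodes the stimulatory G protein alpha subunit and other products with maternal, paternal or biallelic expression, was at 12.22, 11.93 and 11.83 in mutIDH1 and at 11.81 and 11.71 in wtIDH1 (0.23 ± 0.13, adjusted p = 0.544). Its probes disagreed, since 4 of the 9 past the filter had this sign. Nnat, neuronatin, a small membrane protein of developing brain, was at 10.54, 10.36 and 10.46 in mutIDH1 and at 10.40 and 10.26 in wtIDH1 (0.12 ± 0.09, adjusted p = 0.644), with 2 of 3 probes of this sign. Impact, a regulator of translation under amino acid shortage, ran from 10.64 to 12.06 with wtIDH1 sample 1 lowest and mutIDH1 sample 1 highest (0.27 ± 0.44, adjusted p = 0.865).

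Nap1l5, a brain nucleosome assembly protein, ran from 11.35 to 12.15 (-0.07 ± 0.26, adjusted p = 0.946). Ppp1r9a, neurabin of dendritic spines, ranged from 11.39 to 11.49 except in wtIDH1 sample 1, where it was 10.91 (0.26 ± 0.15, adjusted p = 0.556). Zdbf2, a zinc finger gene of brain, ran from 7.34 to 7.86 (0.03 ± 0.19, adjusted p = 0.975), and Trappc9, a subunit of a vesicle tethering complex, from 8.58 to 9.22 (-0.19 ± 0.19, adjusted p = 0.766). Kcnk9, a potassium leak channel, Peg10, a retrotransposon-derived gene of placenta, and Asb4, a substrate adaptor of ubiquitin ligases, were at or under background, as was Sgce, a sarcoglycan, in the unfiltered table (7.002 to 7.27).

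**Figure D3:**
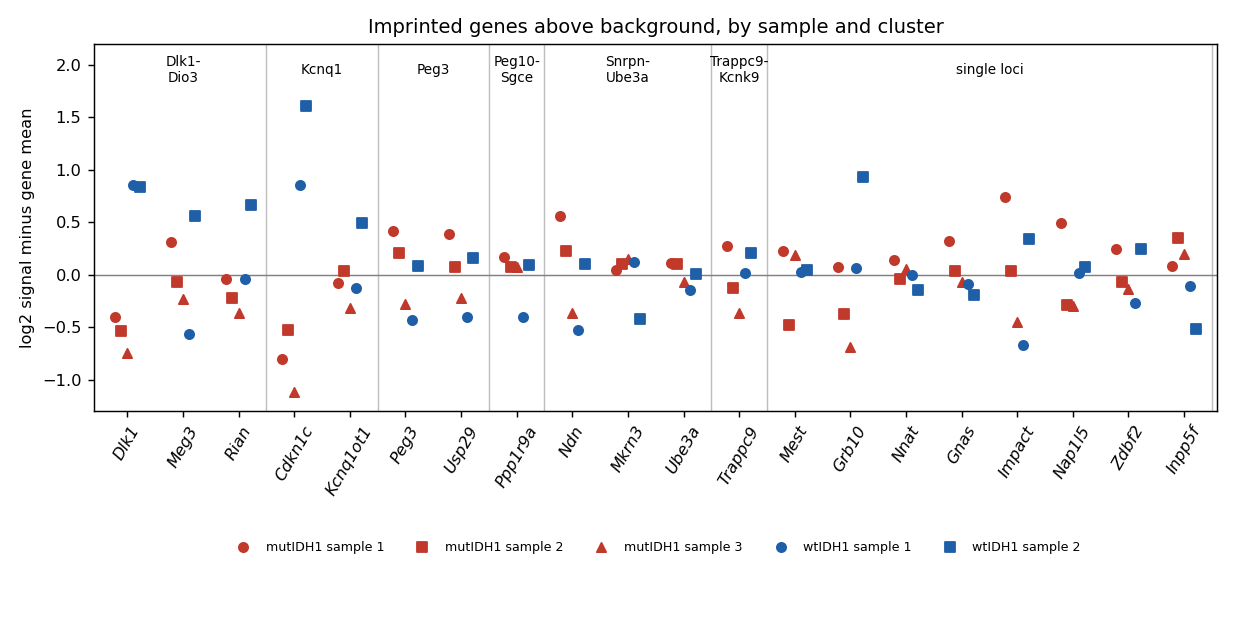
Log2 signal of the 20 imprinted genes above background on at least 1 array, each centred on its mean over all samples (vertical axis), in the 3 mutIDH1 (red) and 2 wtIDH1 (blue) samples, grouped by cluster. Dlk1 and Cdkn1c have all blue points above all red ones, while in Meg3, Peg3, Usp29, Ndn and Impact wtIDH1 sample 1 is the lowest point.

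By parental allele, 1 of 16 tested paternally expressed members fell (Dlk1, group median 0.14) and 1 of 12 maternally expressed members fell (Cdkn1c, group median 0.01). Over all genes 1.35% were called. Gnas was counted apart, as its products differ in allele. Grb10 was counted as maternally expressed, although in neurons it is expressed from the paternal copy. Among members above background on some array, 8 of 12 paternally expressed and 3 of 7 maternally expressed genes had a change above 0. Of all genes above background on some array 54.6% did, and with so few members no contrast between the alleles is drawn. The signs are those of the brightest probe. Of 17 members with more than 1 probe past the filter, 7 had all these probes of 1 sign.

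Many members shared an order of samples that cut across the groups. Of the 20 members above background on some array, 12 were highest among mutIDH1 samples in sample 1 and lowest in sample 3, and were also higher in wtIDH1 sample 2 than in wtIDH1 sample 1. They were Meg3, Rian, Peg3, Usp29, Ndn, Ube3a, Grb10, Impact, Ppp1r9a, Nap1l5, Zdbf2 and Trappc9. Of all 11897 genes above background on some array, 11.9% had this order. The order was chosen after the values were seen, so the share is a description without a test. It rests on the brightest probe of each gene: of 3 other probes of these members that were above background on all arrays (Peg3, Ube3a and Impact), 0 had the order.

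Markers of several brain cell types had the same order, among those above background 9 of 12 neuron, 5 of 7 astrocyte, 5 of 10 oligodendrocyte lineage and 5 of 10 macrophage and microglia markers. The counts were 0 of 11 endothelial, 0 of 12 mural cell and fibroblast, 1 of 5 ependyma and choroid plexus, 0 of 4 red blood cell and 0 of 5 dividing cell markers. Among the gene lists described below, 8 of 24 other imprinted genes and cluster neighbours (33.3%) had the order. So did 1 of 16 genes that keep imprints and 0 of 10 genes of DNA methylation and demethylation. The mean level of the 15 tested neuron markers, each centred on its own mean, was 0.53, 0.28 and -0.18 in mutIDH1 samples 1, 2 and 3, -1.37 in wtIDH1 sample 1 and 0.74 in wtIDH1 sample 2. That of the astrocyte markers was 0.48, 0.18 and -0.01 in mutIDH1 and -0.94 and 0.30 in wtIDH1. That of the oligodendrocyte lineage markers was 0.80, -0.10 and -0.36 in mutIDH1 and -0.71 and 0.36 in wtIDH1. The means of these 3 lists were thus lowest in wtIDH1 sample 1. Among markers above background, that sample was the lowest for 10 of 12 neuron and 6 of 7 astrocyte markers. It was so for only 4 of 10 oligodendrocyte lineage markers (Mobp, Mog, Mbp and Mag), and for 24.6% of all genes above background. Olig2, Pdgfra, Cspg5 and Sox10 of that lineage were instead lowest in wtIDH1 sample 2. As one neuron marker, picked with its values in view, Slc32a1, the vesicular transporter of inhibitory transmitters, ranged from 9.59 to 11.77 except in wtIDH1 sample 1, where it was under background (7.18). Dcx and Map2 of the same list went otherwise. Dcx was highest of all samples in wtIDH1 sample 1 (10.77), and Map2 there (12.31) was above mutIDH1 sample 3 (12.19). None of the 15 neuron markers passed the test between the groups (limma, unadjusted p under 0.05 in 0). The part of neuron, astrocyte, oligodendrocyte or macrophage content in the imprinted genes' values was not tested.

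Some vessel, connective tissue and macrophage markers fell in mutIDH1 beside Dlk1 and Cdkn1c, and others did not pass. Of 12 mural cell and fibroblast markers 4 fell, among them Col1a1, a collagen chain (-1.53 ± 0.11), and Acta2, smooth muscle actin (-2.19 ± 0.18), and the centred mean of the list lay between -0.35 and -0.21 in mutIDH1 and at 0.44 and 0.46 in wtIDH1. Of 11 endothelial markers 3 fell, with Vwf at -1.34 ± 0.14 and Emcn at -1.26 ± 0.13, and the list lay between -0.35 and -0.12 in mutIDH1 and at 0.32 and 0.41 in wtIDH1. Of 11 macrophage and microglia markers 2 fell, Mrc1 (-1.35 ± 0.12) and Ms4a7 (-2.51 ± 0.30), and the list lay between -0.43 and -0.18 in mutIDH1 and at 0.21 and 0.65 in wtIDH1. The groups did not overlap for 9 of the 12 mural cell and fibroblast and 8 of the 11 endothelial markers. The same held for 5 of the 11 macrophage and microglia markers, and all of these were lower in mutIDH1. Over all genes, 14% were lower without overlap and 0.899% were called lower. The markers of these lists above 0 included Cspg4 (0.20) and Rgs5 (0.09) of pericytes and Kdr (0.08), a VEGF receptor of endothelium. The others were P2ry12 (0.12) and Itgam (0.11) of microglia and myeloid cells. The groups overlapped for each of these markers above 0. These lists held 0, 0 and 1 gene at or under background on every array. Their part in the fall of Dlk1 and Cdkn1c was not tested.

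Among the other marker lists none had a member that passed (limma). Red blood cell markers, 4 of 8 tested, had 0 calls (3 at an unadjusted p under 0.05) with a median of -1.53, including Alas2, the heme synthesis enzyme of red cells (-1.71 ± 0.38, adjusted p = 0.123), and Hbb-b2, a globin gene with near-identical copies (-1.87 ± 0.49, adjusted p = 0.167). The medians were 0.39 for 10 oligodendrocyte lineage markers (3 at an unadjusted p under 0.05, 1 lower and 2 higher) and 0.31 for 7 astrocyte markers (2, 1 lower and 1 higher). They were 0.13 for 5 ependyma and choroid plexus markers (1, higher) and -0.12 for 6 markers of dividing cells (0). Over all genes 14.4% had an unadjusted p under 0.05 (limma). Cdkn1c, a brake on the cell cycle, fell beside dividing cell markers of which none passed, such as Top2a, the mitotic topoisomerase, at -0.12 ± 0.20 (adjusted p = 0.872).

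**Figure D4:**
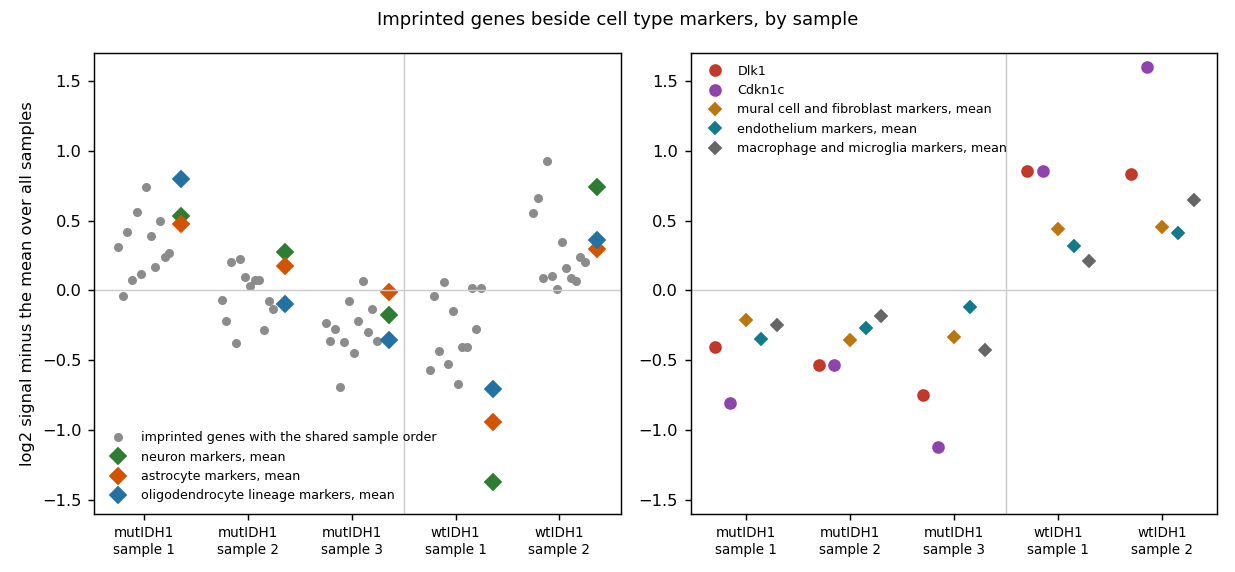
Log2 signal centred on the mean over all samples (vertical axis) in each of the 5 samples, for the 12 imprinted genes that share the sample order with the means of neuron, astrocyte and oligodendrocyte lineage markers (left), and for Dlk1 and Cdkn1c with the means of mural cell and fibroblast, endothelial, and macrophage and microglia markers (right). The means of the neuron, astrocyte and oligodendrocyte lists are lowest in wtIDH1 sample 1 (-1.37, -0.94 and -0.71), though only 4 of 10 oligodendrocyte lineage markers are lowest there. By contrast, the means of the vessel and macrophage lists separate the groups, as Dlk1 and Cdkn1c do. Those of the red blood cell list (lower in mutIDH1) and of the ependyma and choroid plexus list (higher), not shown, do so too.

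No gene known to keep imprints passed. Of 18 tested, 0 passed (limma, 1 at an unadjusted p under 0.05), and the list's median was -0.03. As 1.35% of all genes passed, 0 calls among 18 genes says little about the list. At an unadjusted p under 0.05 the share was 5.56%, against 14.4% of all genes. Eed, a Polycomb subunit, had the smallest p, with 8.95, 9.08 and 8.99 in mutIDH1 and 9.32 and 9.42 in wtIDH1 (-0.36 ± 0.08, adjusted p = 0.116). Setdb1, a histone methyltransferase recruited to imprinted regions, stood at 0.20 ± 0.10, its partner Trim28 at 0.16 ± 0.09 and Arid4b, a chromatin protein of the Snrpn region, at 0.26 ± 0.11, with adjusted p between 0.389 and 0.554. Dnmt1, the maintenance methyltransferase, was between 11.07 and 11.17 in mutIDH1 and at 11.25 and 11.12 in wtIDH1 (-0.07 ± 0.08, 95% interval -0.27 to 0.13, adjusted p = 0.797; chosen after its values were seen).

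Of 12 further genes of DNA methylation and demethylation 0 passed (limma, 2 at an unadjusted p under 0.05), with a median of 0.00. These shares, 0% and 16.7%, stood against 1.35% and 14.4% of all genes, and a list of 12 genes is too short to tell them apart. Apobec1, a cytidine deaminase, was at 8.62, 8.40 and 8.64 in mutIDH1 and at 10.52 and 9.34 in wtIDH1 (-1.38 ± 0.34, adjusted p = 0.15). The groups did not overlap, and the wtIDH1 samples differed from each other by more than the mutIDH1 samples did. Dnmt3b, a de novo methyltransferase, stood at -0.22 ± 0.07 (adjusted p = 0.234), Mbd4, a glycosylase that acts at methylated CpG sites, at 0.23 ± 0.10 (adjusted p = 0.406) and Tet3, a methylcytosine oxidase, at 0.12 ± 0.08 (adjusted p = 0.602), at or under background throughout.

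Of 31 tested other imprinted genes and cluster neighbours 0 passed (limma, 8 at an unadjusted p under 0.05), and the median was -0.04. Of all genes 1.35% passed, so 0 calls in a list of this size says little. The 8 genes were 25.8% of the list, against 14.4% of all genes. The groups did not overlap for 13 of the 31 (41.9%, 8 lower and 5 higher in mutIDH1), against 30.6% of all genes. Igf2, the paternally expressed growth factor whose cluster also holds H19, was at 11.08, 9.94 and 9.75 in mutIDH1 and at 11.22 and 12.22 in wtIDH1. The wtIDH1 samples were the highest, but mutIDH1 sample 1 was close to wtIDH1 sample 1, and the change of -1.46 ± 0.49 (95% interval -2.68 to -0.25) had an adjusted p of 0.256. Dcn, a matrix proteoglycan that is imprinted in placenta and is also on the fibroblast list, stood at -2.07 ± 0.38 (adjusted p = 0.0815). Cobl, an actin nucleator next to Grb10, stood at 0.68 ± 0.16 (adjusted p = 0.13) and Tspan32, a tetraspanin of the Kcnq1 region, at -0.25 ± 0.07 (adjusted p = 0.166). Igf2r, the receptor that clears the Igf2 protein, lay between 8.76 and 8.88 in all samples (-0.08 ± 0.07, adjusted p = 0.724; chosen after its values were seen).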

How the data were processed

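RNA of 5 tumours was measured on Illumina BeadArrays, grouped and numbered by their titles. The values the authors deposited are log2 signals of 45281 probes on a shared distribution (array medians differ by at most 0.000688, values run from 6.909 to 15.06); per the submitters' processing notes limma was used, and the version and the background and normalization steps are not given in the sources used here. Background had not been subtracted to 0, which compresses changes of dim genes. The 10 value columns of a non-normalized table could not be tied to a sample by name and were left aside, so the alternative with neqc was not run.

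Probes were named by the platform annotation (34885 with 1 symbol, 18 with several, 10378 unnamed), with symbols updated through RefSeq (GRCm38.p6). The dimmest 20% of probes (mean below 7.229) were dropped, and each gene was read by its brightest probe. Background was the mode of all signals (7.244) plus 3 times the spread below it (0.0885), or 7.51. The 2-sided test was that of limma 3.58.1 (lmFit and eBayes, R 4.3.3) on all 5 samples with 3 residual and 2.5 prior degrees of freedom, adjusted over all genes at 0.05, and the code was tested on simulated data. Changes are mutIDH1 minus wtIDH1 with moderated SE.

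Members and lists were chosen with earlier results of these data known. Named were all members, of each gene list those past the threshold and up to 4 with the smallest p, of marker lists up to 2, and Idh1. Others are cluster neighbours, or were picked with their values in view. The latter are Slc32a1, Dcx, Map2, Top2a, the named oligodendrocyte lineage markers, the 5 vessel and myeloid markers above 0 and those marked as such. Alternatives covered the filter, the probes per gene, moderation, cyclic loess, normexp, sex (read from Xist and a Y-linked gene), the replicate block and leaving out each sample.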

Additional observations from a re-analysis of the deposited data

How the results depend on the processing

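Over 13 alternative settings for each of the 29 tested imprinted genes, fewer where a filter removed a probe, 338 of 370 changes kept their sign and 328 also their side of the threshold. The 2 calls were kept without the filter on dim probes, with the dimmest 40% left out, with the mean of a gene's probes, with trended and robust moderation and with normexp. They also passed without either wtIDH1 sample, but there the lone wtIDH1 sample is assumed to vary like the mutIDH1 ones, so this shows little about stability. With cyclic loess and with sex as a covariate 1 imprinted gene passed, Dlk1, and leaving out 1 sample gave 0 to 2, with 0 in each fit without a mutIDH1 sample (limma, 6, 3 and 3 at an unadjusted p under 0.05 without mutIDH1 sample 1, 2 and 3). The change of Dlk1 stayed between -1.49 and -1.32 and that of Cdkn1c between -2.42 and -1.67. Over all genes 363 passed with trended and robust moderation, 59 with sex as a covariate, and 0 to 479 with 1 sample left out (14, 0 and 0 without mutIDH1 sample 1, 2 and 3, where 2252, 1747 and 1849 had an unadjusted p under 0.05). The sample numbers are shared between the groups without a stated pairing. Deviations of same-numbered samples from their group means correlated at -0.263 for number 1 and 0.107 for number 2. With only 2 wtIDH1 samples their deviations mirror each other, so these values cannot decide whether the samples were paired. With the replicate block, in which mutIDH1 sample 3 has no partner and adds nothing, 0 imprinted genes and 0 genes in all passed (2 and 1562 at an unadjusted p under 0.05), with Dlk1 at -1.32 and Cdkn1c at -1.90. Signs that turned without wtIDH1 sample 1 include those of Meg3 (-0.56), Impact (-0.24), Zdbf2 (-0.23) and Usp29 (-0.08), genes that were lowest in that sample. The neqc alternative was not run, since its columns name no sample, and causes of these shifts were not tested. For the 9 members at or under background, a change could be hidden by the array's background.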
